A study of Mus musculus with 30 samples.

Results

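Histone H3 lysine 4 monomethylation (H3K4me1) was compared between E2A-/- pre-pro-B cells given full-length E47-ER and the same kind of cells given bHLH-ER, a form of E2A that lacks both transactivation domains, 6 h after tamoxifen. There was 1 library for each form. The E47-ER list held 11169 regions and the bHLH-ER list 17146, together 28315 of the 323966 regions that the 24 chromatin libraries of the series listed. The members were all regions of both lists, with no other selection.

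E2A is the gene (Tcf3) that encodes the E proteins E12 and E47. These bind E-box sequences as dimers through a basic helix-loop-helix (bHLH) domain, and recruit co-activators through separate activation domains nearer the amino terminus. Cells without E2A stop at the pre-pro-B stage, before the B-lineage programme is established. H3K4me1 marks enhancers, both poised and active, and the flanks of active promoters. Fusion to the ligand binding domain of the oestrogen receptor (ER) keeps a protein inactive until tamoxifen is added, so binding and chromatin can be followed from a known time.

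Both groups shared the same C57BL/6 strain, the E2A-/- background, growth on S17 stroma with IL7, SCF and FLT3 ligand, and a retrovirus that also carried human CD25. In both, tamoxifen was added to 1 µM at 21 h of culture, CD25-bearing cells were enriched with magnets after 6 h, and the H3K4me1 antibody was the same. The groups therefore differed in the form of E2A and in being separate infections and libraries, and these cannot be told apart with 1 library each. A library of E2A-/- cells without any E2A form was not analysed here, so a region present with both forms may or may not have been there beforehand. The other readouts used were E47-ER binding (an E2A antibody) and H3K4me1 in these cells after full-length E47-ER, binding and H3K4me1 in A12 cells (an E2A-/- T cell line) with both forms for H3K4me1, chromatin lists of untreated EBF-/- pre-pro-B and RAG1-/- pro-B cells, a mock immunoprecipitation, and arrays of the 3 untreated genotypes (2 samples each). The sources used here give no read depth. All intervals below are exact (Clopper-Pearson) 95% binomial intervals, and they cover counting error only, not the spread between cultures.

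The labelled cell type was checked in the untreated E2A-/- arrays, as log2 normalised intensity. Cd34, a progenitor surface protein, measured 15.7 and 15.6, Flt3, the receptor for FLT3 ligand, 13.5 and 13.7, and Il7r, the IL7 receptor, 11.6 in both. Igll1, a surrogate light chain of early B cells, measured 11.1 in replicate 1 and 4.34 in replicate 2, where it was not well above background. Vpreb3, another pre-B receptor component, measured 14.4 and 3.84, and Pax5, the B-cell commitment factor, 9.37 and 6.83, neither of them well above background in replicate 2. Over 2-fold higher signal in replicate 1 was found for 8 of 12 pre-B receptor genes, 8 of 11 tested B cell surface genes and 8 of 17 B-lineage transcription factors, against 5.91% of all genes tested, and none of these list members was over 2-fold lower. The E2A-/- samples thus differed across B-lineage transcripts, and every array comparison below is made against them. Markers of other cells were also read. Signal well above background in both E2A-/- samples was found for 10 of 13 listed myeloid markers and 9 of 18 of the T lineage. It was found for 4 of 11 of NK and cytotoxic cells, 2 of 8 of stroma and 0 of 6 of the erythroid lineage. Listed markers left out by the filter on dim genes, or lacking a probe, count here as not found. Those tested numbered 10, 13, 8, 3 and 2 in the same order, so shares of tested markers would be raised by that filter. The brightest were Lyz2, a myeloid lysozyme (15.3 in both samples), and Tyrobp, a signalling adaptor of NK and myeloid cells (15.3 in both). These cultures were not the ones infected, and the part of other cells in the H3K4me1 lists was not tested.

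The H3K4me1 lists of the forms differed at more regions than they shared. Of the E47-ER regions, 5736 overlapped a bHLH-ER region by at least 1 bp, which is 51.4% (50.4 to 52.3) of the E47-ER list and 33.5% (32.7 to 34.2) of the bHLH-ER list. That left 5433 E47-ER-only regions, 48.6% of their list, and 11410 bHLH-ER-only regions, 66.5% of theirs. Merged over both lists there were 22579 regions, of which 24.1% were found with E47-ER alone, 50.5% with bHLH-ER alone and 25.4% with both. The lists differ in length by the authors' calls, and when both were held to their 11169 highest scores the overlap was 41.1% of each.

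Regions that were not shared were mostly far from any region of the other list. Every region was a window of 1000 bp. Of the E47-ER windows, 33.5% had their centre within 250 bp of a bHLH-ER centre, and 35.2% had none within 10000 bp. Only 270 of the E47-ER-only regions had a bHLH-ER region with its edge within 1000 bp. Of the bHLH-ER windows 55.0% had no E47-ER centre within 10000 bp.

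The E47-ER regions of 6 h overlapped the 1 h list of their own form about as often as the bHLH-ER regions did. The 1 h E47-ER list held 18155 regions. It overlapped 54.6% (53.7 to 55.5) of the 6 h E47-ER regions and 54.4% (53.7 to 55.2) of the bHLH-ER regions. With each list held to 11169 regions, the overlap was 43.6% (42.7 to 44.5) between E47-ER at 6 h and at 1 h, 41.1% (40.2 to 42.0) between E47-ER and bHLH-ER at 6 h, and 49.4% (48.4 to 50.3) between bHLH-ER at 6 h and E47-ER at 1 h. At one length the nearest pair was thus bHLH-ER at 6 h and E47-ER at 1 h.

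**Figure D1:**
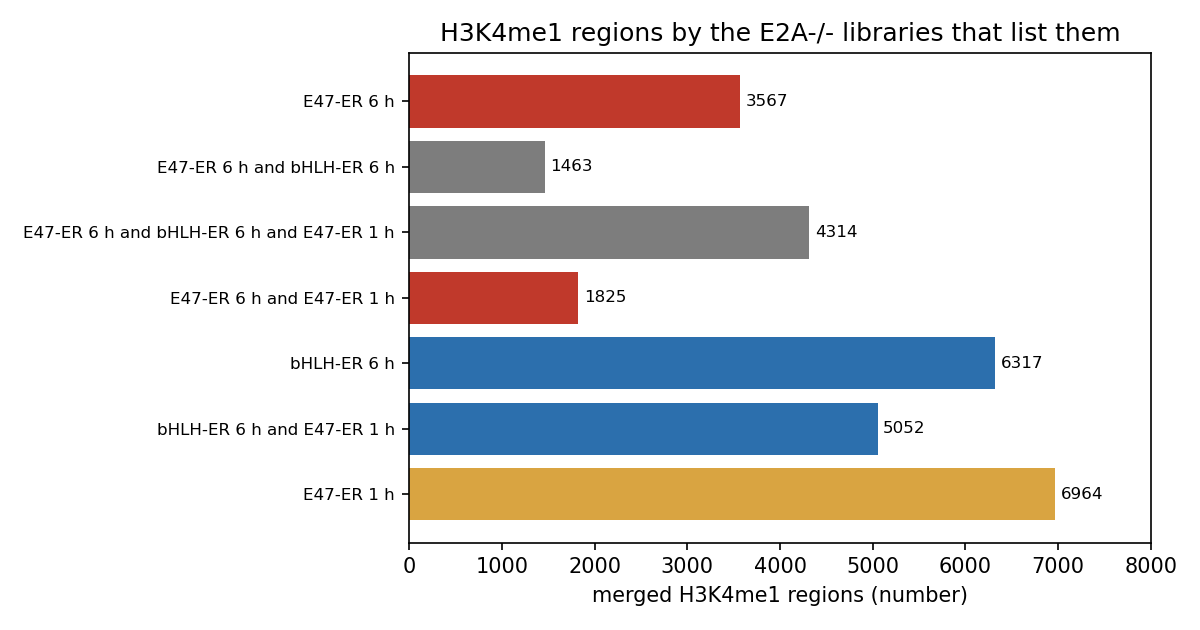
Number of merged H3K4me1 regions (horizontal axis) by the E2A-/- libraries that list them, for E47-ER at 6 h, bHLH-ER at 6 h and E47-ER at 1 h. All 3 libraries list 4314 regions, 3567 are listed with E47-ER at 6 h alone, 6317 with bHLH-ER alone, and 5052 are listed with bHLH-ER at 6 h and E47-ER at 1 h but not with E47-ER at 6 h.

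Across the 3 libraries, 29502 merged regions fell into 7 patterns, as the bar plot of merged regions shows. The regions listed at 1 h with E47-ER and at 6 h with bHLH-ER, but not at 6 h with E47-ER, numbered 5052. Those listed with E47-ER at both times but not with bHLH-ER numbered 1825, and those listed with both forms at 6 h but not at 1 h numbered 1463.

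Overlap rose with the score that the authors' caller gave each region. The score is a whole number from 12 to 132 in the E47-ER list (median 17) and from 13 to 344 in the bHLH-ER list (median 21); its scale is not stated, so it is used within a list only. From the lowest to the highest decile of score, overlap went from 43.5% to 56.0% of E47-ER regions. In the bHLH-ER list it went from 14.5% to 46.7%, with 50.2% in the decile below the highest. Regions absent from the other list were thus found in every decile of score.

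**Figure D2:**
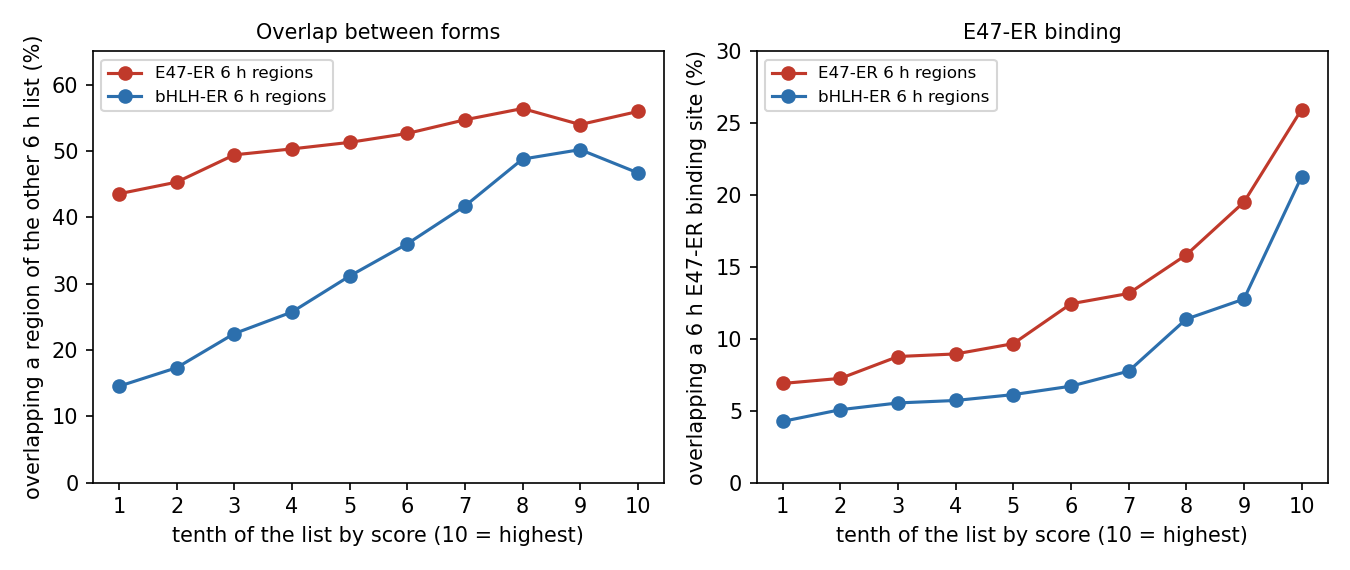
Left, share of regions (%) that overlap a region of the other 6 h list; right, share that overlap a 6 h E47-ER binding site; both by decile of score within each list (10 is the highest). Binding rises from 6.90% to 26% over the E47-ER list and from 4.26% to 21.3% over the bHLH-ER list.

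E47-ER binding sites lay more often in E47-ER-only regions than in bHLH-ER-only regions. Sites of E47-ER at 6 h, mapped with full-length E47-ER in E2A-/- cells, overlapped 812 of 5433 E47-ER-only regions (14.9%, 14.0 to 15.9), 623 of 5736 shared regions (10.9%, 10.1 to 11.7) and 798 of 11410 bHLH-ER-only regions (6.99%, 6.53 to 7.48). The share in E47-ER-only regions was 2.14 times that in bHLH-ER-only regions. Sites at 1 h gave 25.6% (24.4 to 26.8), 22.8% (21.7 to 23.9) and 12.6% (12.0 to 13.3) in the same order. Binding of the bHLH-ER form itself was not analysed here, so these sites are those of the full-length form. The intervals of these classes do not overlap, but each share rests on 1 H3K4me1 library and 1 binding library.

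E2A binding mapped in other cells also lay more often in E47-ER-only than in bHLH-ER-only regions. E47-ER sites of A12 cells overlapped 12.5% (11.6 to 13.4) of E47-ER-only, 8.26% (7.56 to 9.01) of shared and 6.12% (5.68 to 6.57) of bHLH-ER-only regions. Endogenous E2A in RAG1-/- pro-B cells overlapped 8.41% (7.69 to 9.18), 8.84% (8.12 to 9.60) and 5.21% (4.81 to 5.63), so there the shared regions were as high as the E47-ER-only regions. Endogenous E2A in EBF-/- pre-pro-B cells overlapped 3.02% (2.58 to 3.51), 3.8% (3.32 to 4.33) and 2.30% (2.03 to 2.59), where the intervals of the single-form classes meet. Sites of CTCF, an insulator protein used here for comparison, did not follow this order, with 7.49% (6.81 to 8.22), 7.95% (7.26 to 8.68) and 8.54% (8.03 to 9.06). The mock immunoprecipitation overlapped 3 E47-ER-only, 6 shared and 6 bHLH-ER-only regions.

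**Figure D3:**
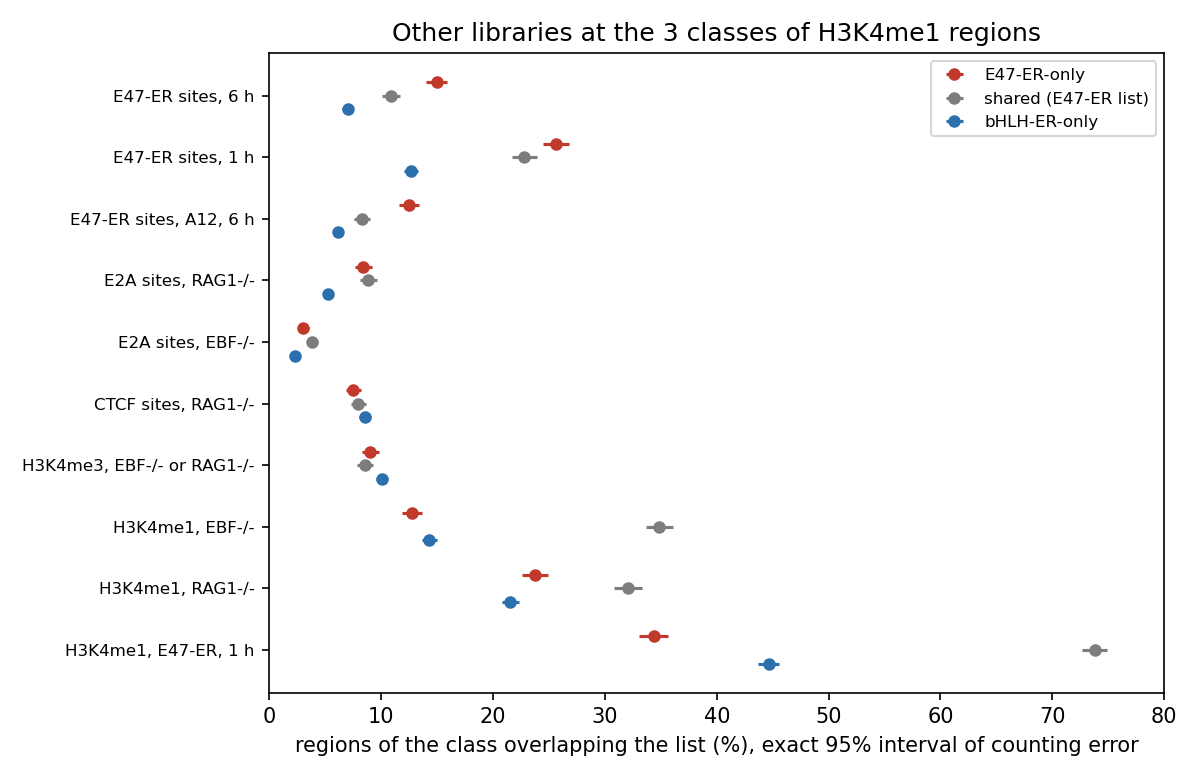
Share (%) of E47-ER-only (red), shared (grey, by the E47-ER list) and bHLH-ER-only (blue) regions that overlap each other list, with exact 95% intervals of counting error. The order red, grey, blue holds for the 3 E47-ER site lists at the top, while CTCF and H3K4me3 lie between 7.49% and 10.1% in each class.

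The gap in binding was present at high and low scores. Among regions in the higher-scored 50% of their own list, 6 h sites lay in 19.4% (17.9 to 21.0) of E47-ER-only and 11.6% (10.7 to 12.5) of bHLH-ER-only regions. Among the lower-scored 50% the shares were 11.1% (9.95 to 12.3) and 3.75% (3.30 to 4.23). Membership of the 1 h H3K4me1 list moved these shares little: 13.4% of E47-ER-only regions that were also listed at 1 h and 15.8% of those that were not had a 6 h site, against 7.11% and 6.90% of bHLH-ER-only regions.

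The gap was seen at regions without H3K4me3, the mark of active promoters, in EBF-/- or RAG1-/- cells, and not at regions with it. Where no H3K4me3 region overlapped, 6 h sites lay in 15.7% (14.7 to 16.8) of 4944 E47-ER-only and 6.71% (6.24 to 7.21) of 10263 bHLH-ER-only regions. Where one did, the shares were 6.95% (4.86 to 9.58) of 489 and 9.5% (7.87 to 11.3) of 1147, and the intervals overlap. The difference between these gaps was not tested. H3K4me3 itself was found at 9.0% (8.25 to 9.79) of E47-ER-only, 8.51% (7.80 to 9.26) of shared and 10.1% (9.51 to 10.6) of bHLH-ER-only regions.

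H3K4me1 and H3K4me2 of other cells lay most often in shared regions, and H3K4me3 did not. H3K4me1 of EBF-/- pre-pro-B cells covered 34.9% (33.6 to 36.1) of shared regions, against 12.7% (11.9 to 13.7) of E47-ER-only and 14.3% (13.7 to 15.0) of bHLH-ER-only regions. H3K4me1 of RAG1-/- pro-B cells covered 32.1% (30.9 to 33.3), 23.7% (22.6 to 24.9) and 21.5% (20.8 to 22.3) in the same order, so the classes lay closer together for pro-B than for pre-pro-B marking. H3K4me2 of EBF-/- cells, a mark that extends over enhancers and promoters, covered 55.5%, 34.7% and 34.0%. H3K4me3 of EBF-/- cells went the other way, at 4.03% (3.53 to 4.57) of shared, 5.54% (4.95 to 6.18) of E47-ER-only and 5.99% (5.57 to 6.45) of bHLH-ER-only regions. For H3K4me3 of RAG1-/- cells the shares were 8.07% (7.38 to 8.81), 8.36% (7.63 to 9.12) and 9.42% (8.89 to 9.97). Sites of EBF1 and FOXO1, B-lineage factors that act with E2A, covered under 1% of every class: EBF1 sites lay in 0.607% of E47-ER-only and 0.631% of bHLH-ER-only regions, and FOXO1 sites in 0.847% and 0.719%.

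Most bound sites carried no H3K4me1 region of either form. Of the 15386 sites of E47-ER at 6 h, 1457 (9.47%, 9.01 to 9.94) overlapped an E47-ER region and 1521 (9.89%, 9.42 to 10.4) a bHLH-ER region, while 12975 (84.3%, 83.7 to 84.9) overlapped neither. By class, 890 sites lay in E47-ER-only regions, 567 in regions of both lists and 954 in bHLH-ER-only regions. Seen from the sites the single forms were thus alike in number, while the bHLH-ER-only class held more regions.

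The H3K4me1 windows of the forms lay at different distances from bound sites. At 1954 sites of E47-ER at 6 h an E47-ER window centre lay within 1000 bp, at a median of 345 bp (quartiles 153 and 603.5), and 35.3% (33.1 to 37.4) of them lay 500 bp or more away. For bHLH-ER there were 1916 such sites, with a median of 274.5 bp (quartiles 129 and 523) and 26.7% (24.7 to 28.7) at 500 bp or more. The 1 h E47-ER windows lay at a median of 350 bp, with 31.4% (29.4 to 33.5) at 500 bp or more. Windows of full-length E47-ER thus stood farther from the 6 h sites at both times than those of bHLH-ER. Around the E47-ER sites of 1 h the gap was smaller. The medians there were 305 bp for E47-ER at 6 h, 308 bp for E47-ER at 1 h and 269 bp for bHLH-ER.

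The same was seen when both forms had a window at the same site. At 844 sites of 6 h with both, the E47-ER window was farther from the site at 512 and the bHLH-ER window at 328 (61.0% E47-ER farther, 57.6 to 64.3), with medians of 360 and 252 bp. E47-ER at 1 h against bHLH-ER gave 622 and 438 of 1065 sites (58.7%, 55.6 to 61.7). E47-ER at 6 h against 1 h gave 491 and 460 of 951 sites (51.6%, 48.4 to 54.8). Around the E47-ER sites of 1 h, E47-ER at 6 h was farther than bHLH-ER at 928 and nearer at 736 of 1669 sites. That was 55.8% (53.3 to 58.2), with medians of 296 and 249 bp. Around CTCF sites E47-ER was farther than bHLH-ER at 387 and nearer at 347 of 734 sites (52.7%, 49.0 to 56.4), with medians of 481 and 452 bp. Over all CTCF sites with a window within 1000 bp, the medians were 487.5 bp for E47-ER and 453 bp for bHLH-ER. There 48.7% (46.0 to 51.3) and 44.5% (42.5 to 46.6) lay 500 bp or more away. Some of the larger distance of E47-ER windows was thus also seen at CTCF sites. In A12 cells, around the E47-ER sites of those cells, E47-ER was farther than bHLH-ER at 577 and nearer at 457 of 1037 sites (55.8%, 52.7 to 58.9), with medians of 261 and 230 bp. Neighbouring sites can share a window, so the sites are not independent and no test was made.

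**Figure D4:**
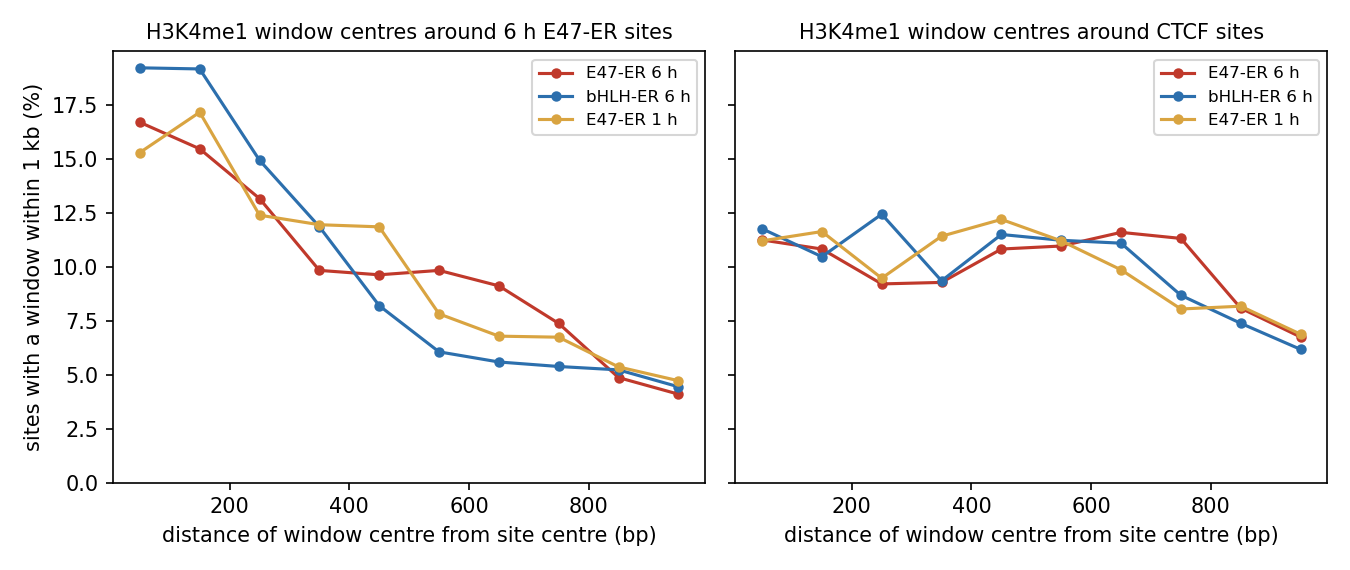
Distance (bp) of H3K4me1 window centres from the centres of 6 h E47-ER sites (left) and CTCF sites (right), as the share of sites with a window within 1000 bp in bins of 100 bp. Around E47-ER sites the bHLH-ER curve is highest below 200 bp and E47-ER at 6 h is highest from 500 to 800 bp; around CTCF sites the curves cross.

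The distance depended on score in the full-length lists. In the higher-scored 50% of the E47-ER list the median was 384 bp, against 277 bp in the lower-scored 50%. In the bHLH-ER list these were 275 and 272 bp, and in the 1 h E47-ER list 377 and 272 bp. The larger distance was thus found among the higher-scored windows of E47-ER.

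Chromosome 7 held an outsized share of the highest scores with both forms. Of the 200 highest-scored regions, 62 of the E47-ER list (31.0%) and 66 of the bHLH-ER list (33.0%) lay on chromosome 7, which held 7.79% and 7.26% of all their regions; the next chromosome, 11, held 20 and 26. The 1 h E47-ER list had 57 there, and the A12 lists 49 with E47-ER and 53 with bHLH-ER. The untreated EBF-/- and RAG1-/- H3K4me1 lists had 20 and 9. The E2A-/- genotype, the viral infection and the library set all move with this difference, and their parts cannot be told apart. The binding gap was present with and without this chromosome: 19.8% (16.0 to 24.0) against 8.73% (6.84 to 10.9) on it, and 14.6% (13.6 to 15.6) against 6.87% (6.39 to 7.36) on the others.

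The 5 highest-scored E47-ER-only regions were all on chromosome 7, in mm8 coordinates. The first, chr7:80329366-80330365 (score 56), lay 0.436 kb from a probe of Blm, a DNA helicase, and had no E47-ER site. The next, chr7:113950968-113951967 (score 52), was bound at 1 h and 6 h, in A12 cells and by endogenous E2A in RAG1-/- cells, and carried pro-B H3K4me1; its nearest probe, of Copb1, was 55.1 kb away. The others lay nearest Uvrag, an autophagy gene (score 51), over a probe of Spn, which encodes the leukocyte surface protein CD43 (score 50), and nearest Lcmt1 (score 49). Of these 5 regions, 2 carried E47-ER sites at 6 h.

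The highest-scored bHLH-ER-only regions scored 344 at chr11:3057453-3058452 near Sfi1, 95 at chr7:126160006-126161005 near Spns1, 83 at chr7:140996498-140997497 near Ptdss2, 82 at chr11:75388359-75389358 near Slc43a2 and 81 at chr1:90092818-90093817 near Hjurp. The first 4 overlapped 1 h E47-ER sites, and 3 of those also 6 h sites. The Sfi1 region was also listed with E47-ER at 1 h and in A12 cells. Its score stood far above the next in its list.

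Regions were assigned to the gene of the nearest array probe within 50 kb, by the mm8 positions in the array design. Probes lie mostly near the 3′ end of transcripts, so this marks a neighbourhood and not a promoter. This placed 4126 E47-ER-only regions (75.9%) near 3431 genes, 8643 bHLH-ER-only regions (75.7%) near 6158 genes and 4310 shared regions near 3573 genes. Of the 12769 regions of a single form assigned to a gene, 32.3% were E47-ER-only, and the lists below are read against that share.

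Of the 13 single-form regions near the 17 B-lineage transcription factors, 3 were E47-ER-only (23.1%, 5.04 to 53.8), and 10 further regions were shared. The interval holds the 32.3% of all assigned regions. Runx1, a haematopoietic factor, had 5 shared and 2 bHLH-ER-only regions. Pax5 had 2 bHLH-ER-only regions, chr4:44558428-44559427 and chr4:44586083-44587082, that overlapped its probes, and neither overlapped an E47-ER site. The region at chr4:44586083-44587082 was also listed with E47-ER at 1 h and carried H3K4me1 in EBF-/- cells. Ebf1 and Foxo1, which E2A is known to activate, had no region assigned. Within 100 kb of the 2 Ebf1 probes used there was no region of either 6 h list and 1 E47-ER site at 6 h. Any part of the gene farther from these probes was not read. Within 100 kb of the Foxo1 probes there were 1 shared region and 3 sites.

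Sox4, a factor of early B cells, had 1 region of each single form. The E47-ER-only region, chr13:28966291-28967290, carried E47-ER at 1 h and 6 h and in A12 cells, endogenous E2A in both EBF-/- and RAG1-/- cells, H3K4me1 at 1 h and in EBF-/- cells, and H3K4me3. The bHLH-ER-only region, chr13:28929130-28930129, lay farther from the probe and had no site. It carried H3K4me1 in RAG1-/- cells, which the E47-ER-only region did not.

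The lists of the pre-B receptor and of V(D)J recombination held too few regions to be told from the 32.3% of all assigned regions. For the pre-B receptor list 2 of 8 single-form regions were E47-ER-only (25%, 3.19 to 65.1), and for the recombination list 0 of 4 (up to 60.2%). Igll1 and Cd79a, a signalling chain of the receptor, had 1 bHLH-ER-only region each and no E47-ER-only region assigned. The Igll1 region was also listed with E47-ER at 1 h. Within 100 kb of the Cd79a probe there were 2 E47-ER-only, 4 shared and 1 bHLH-ER-only regions. For Igll1 these were 0, 1 and 1. Rag1, a recombinase subunit, had 1 shared region, chr2:101449768-101450767, that was bound by E47-ER at 1 h and in A12 cells, and carried endogenous E2A and H3K4me1 in RAG1-/- cells. Dntt, the terminal transferase, had 1 bHLH-ER-only region.

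By nearest probe, Id2 and Id3, inhibitors of E proteins, had few regions and of different single forms, while Id1 and Id4 had none. Id2 had 2 E47-ER-only regions, chr12:25686350-25687349 and chr12:25697575-25698574, and no other region assigned. Within 100 kb of its probes there were 2 E47-ER-only, 0 shared and 1 bHLH-ER-only regions. That span also held 6 regions of the 1 h E47-ER list and 10 E47-ER sites at 6 h. Neither of the 2 E47-ER-only regions overlapped a 1 h H3K4me1 region or an E47-ER site of E2A-/- cells at 1 h or 6 h. The span of 100 kb was not read for Id3. Id3 had 3 bHLH-ER-only regions, one of which, chr4:135384196-135385195, carried E47-ER at both times, endogenous E2A in both untreated genotypes and pro-B H3K4me1. Gfi1, a repressor of other fates, had 2 shared regions and 1 E47-ER-only region over its probe. Tcf12, which encodes the E protein HEB, had 1 E47-ER-only region with a 6 h site and 3 bHLH-ER-only regions.

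Of the 12 single-form regions of the Notch pathway, 3 were E47-ER-only (25%, 5.49 to 57.2). Notch1, the receptor, had a bHLH-ER-only region at chr2:26280195-26281194 (score 51), 0.066 kb from its probe and bound by E47-ER at 1 h, at 6 h and in A12 cells. Hes1, a Notch target, had 2 bHLH-ER-only regions, both bound at 1 h and 1 at 6 h. Hes5, another target, and Rbpj, the DNA-binding partner of Notch, had 2 bHLH-ER-only regions each. The E47-ER-only regions lay near Notch2, Dtx1 and Nrarp, 1 each, and had no 6 h site. The 3 Notch-pathway regions with a 6 h site among single-form regions were all bHLH-ER-only. In the T lineage list and in the myeloid list, the 2 such regions of each were E47-ER-only. Over all genes 636 E47-ER-only and 638 bHLH-ER-only regions had one. These list counts are too small to set the lists apart.

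Progenitor genes and genes of cytokine and FOXO signalling had the highest shares of E47-ER-only regions among lists with over 10 single-form regions. For progenitor genes it was 10 of 16 (62.5%, 35.4 to 84.8), near 4 of the 12 genes, and none of the 10 was at a 6 h site. Regions near the same gene may not be independent, and the intervals of these lists do not allow for that. Lmo2, a haematopoietic co-factor, had 3 E47-ER-only and 1 bHLH-ER-only regions, Cd34 had 2 and 0, and Meis1, a homeobox factor of progenitors, had 3 of each. For cytokine and FOXO signalling it was 13 of 21 (61.9%, 38.4 to 81.9), near 11 of the 17 genes. Socs2, a feedback inhibitor of cytokine signalling, had 2 of each single form, and Il7r had a shared region, chr15:9436463-9437462, bound by E47-ER at both times and by endogenous E2A and FOXO1 in RAG1-/- cells.

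**Figure D5:**
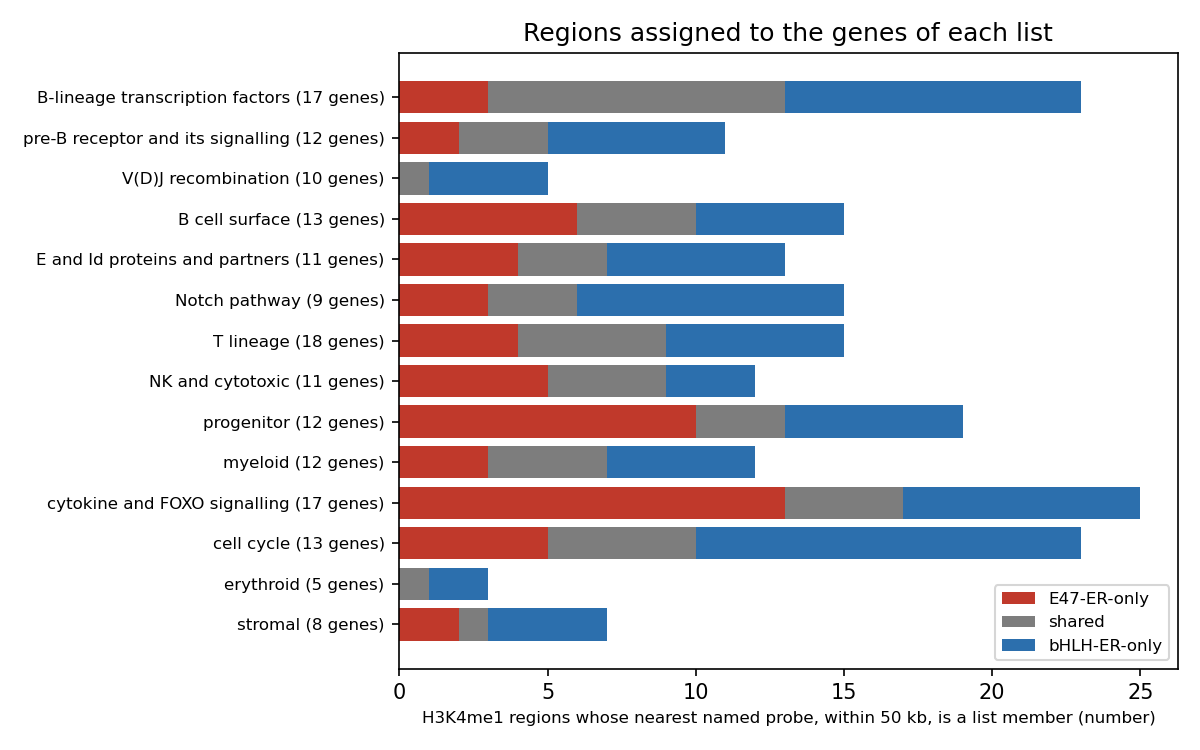
Number of H3K4me1 regions (horizontal axis) whose nearest named probe within 50 kb belongs to a gene of each list, split into E47-ER-only (red), shared (grey) and bHLH-ER-only (blue). Cytokine and FOXO signalling has 13, 4 and 8 and progenitor genes 10, 3 and 6, while V(D)J recombination has 0, 1 and 4.

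The remaining lists had few regions and wide intervals. E47-ER-only regions were 6 of 11 for B cell surface genes, 5 of 18 for cell cycle genes, 4 of 10 for T lineage genes, 4 of 10 for E and Id proteins, 5 of 8 for NK and cytotoxic genes, 3 of 8 for myeloid genes, 2 of 6 for stromal genes and 0 of 2 for erythroid genes. Itgam, which encodes the myeloid integrin CD11b, had 2 E47-ER-only regions, both at 1 h and 6 h E47-ER sites. Cebpa, a myeloid factor, had 2 shared regions and 1 bHLH-ER-only region, none of them bound. Cd9, a tetraspanin, had 3 E47-ER-only and 2 bHLH-ER-only regions; the E47-ER-only window at chr6:125505084-125506083 and the bHLH-ER-only window at chr6:125506522-125507521 are neighbours. The lists are described by their counts, and no test of a list was made.

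The genes with the most E47-ER-only regions were Dgkg, a diacylglycerol kinase, Pan3, a subunit of a deadenylase, Xpnpep1, an aminopeptidase, C730036E19Rik and 5430401H09Rik, with 5 each. Pan3 and Xpnpep1 had no shared or bHLH-ER-only region, and none of their 10 regions was at a 6 h site. A further 13 genes had 4, of which the 7 with the highest-scored regions were Ltbp2, Cdh3, Ttll5, Nsmce2, Pbp2, Btbd9 and Chd9. The most bHLH-ER-only regions lay near Rapgef4, an exchange factor of RAP proteins, with 7, and the genes with 6 included Rps6ka1, a ribosomal S6 kinase, Smg6, Peak1, Aff3, H2az1 and Prim2. Of the 23 genes with 5, those with the highest-scored regions were Ilrun, Sv2c, Tns1 and Lclat1. All 6 regions of Rps6ka1 scored between 22 and 50 and none was at a 6 h site, while 2 of the 5 of Ilrun were. Of the 6 assigned to H2az1, 1 lay on chromosome 6 and the others on chromosome 3, since its probes are placed on both.

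In untreated cells, genes near each whole single-form class were called higher in EBF-/- than in E2A-/- cells at like percentages. In the smaller subsets given below the percentages differed more. Calls of lower expression were more frequent near E47-ER-only regions and near shared regions than near bHLH-ER-only regions. With limma over 12276 genes and Benjamini-Hochberg adjustment, 13.2% were called higher in EBF-/- than in E2A-/- cells and 12.1% lower. Genes near E47-ER-only regions were called higher at 378 of 2698 (14.0%) and lower at 394 (14.6%). Genes near bHLH-ER-only regions were called higher at 658 of 4707 (14.0%) and lower at 609 (12.9%). Near shared regions, 359 of 2719 genes (13.2%) were called higher and 396 (14.6%) lower. Many genes are in more than 1 of these groups. Of the 967 genes near E47-ER-only regions alone 11.7% were called higher and 13.8% lower, against 13.8% and 11.4% of the 2418 genes near bHLH-ER-only regions alone. Of genes near a region with a 6 h site, 13.2% were called lower near E47-ER-only, 14.0% near shared and 8.97% near bHLH-ER-only regions. Called higher were 14.6%, 14.2% and 17.5% of them in the same order. The median difference was -0.022 log2 near E47-ER-only regions, -0.0029 near bHLH-ER-only regions and -0.0057 over all genes tested. The calls rested on few samples: leaving out 1 of the 6 array samples moved the E47-ER-only count widely, and the percentage of all genes called moved with it. Nothing says that the 2 samples of a group came from separate cultures, so p-values measure the spread between these samples.

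Genes near E47-ER-only regions were called lower in RAG1-/- than in E2A-/- cells more often than genes near bHLH-ER-only regions. Against RAG1-/- pro-B cells, 23.4% of all genes were called higher there than in E2A-/- cells and 23.7% lower. Genes near E47-ER-only regions were called lower in RAG1-/- cells at 778 of 2698 (28.8%) and higher at 564 (20.9%). Near bHLH-ER-only regions these were 1217 of 4707 (25.9%) and 1091 (23.2%). Near shared regions they were 27.8% and 21.6%. Among genes near one class alone, 26.7% were called lower and 19.1% higher near E47-ER-only regions, and 22.5% and 24.7% near bHLH-ER-only regions. Genes with no region of either list were called lower at 20.8% and higher at 24.6%. The differences between these groups of genes were not tested. All these arrays are of untreated cells and say nothing of what tamoxifen changed.

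Among the named genes, Lmo2 measured 12.0 and 12.1 log2 units in the E2A-/- samples, and 10.2 in both EBF-/- samples. The RAG1-/- samples lay lower still, at 9.08 and 7.94. Lmo2 fell by 1.84 from E2A-/- to EBF-/- cells (SE 0.323, limma adjusted p = 0.021). Id2 measured 10.7 and 10.7, then 12.3 and 12.0, then 9.45 and 9.58, and was 1.45 higher in EBF-/- than in E2A-/- cells (SE 0.115, limma adjusted p = 0.0038). Cd9 measured 8.23 and 8.38, then 10.9 and 10.7, then 11.5 and 11.8, and was 2.53 higher in EBF-/- cells (SE 0.150, limma adjusted p = 0.0025). In each of these the E2A-/- and EBF-/- samples did not overlap. Notch1 measured 11.9 and 11.8, then 11.5 and 11.6, then 9.09 and 8.99, with a difference of -0.35 between EBF-/- and E2A-/- cells that missed the threshold (SE 0.0954, limma adjusted p = 0.062).

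The same pair of forms was also read in A12 cells. Window centres there came as close as 501 bp in the bHLH-ER list and 503 bp in the E47-ER list, against 2533 and 2576 bp in the E2A-/- lists, so the lists of the 2 cell types were not spaced alike and their values are given side by side only. Of 10185 A12 E47-ER regions 52.2% (51.2 to 53.2) overlapped an A12 bHLH-ER region, which was 45.7% (44.8 to 46.7) of 11624. E47-ER sites of A12 cells lay in 14.7% (13.7 to 15.7) of E47-ER-only, 16.3% (15.3 to 17.3) of shared and 11.5% (10.7 to 12.3) of bHLH-ER-only regions there. Of the E47-ER-only regions of E2A-/- cells, 284 (5.23%, 4.65 to 5.85) were in the A12 E47-ER list alone. In the A12 bHLH-ER list alone there were 280 (5.15%, 4.58 to 5.78), and 306 were in both. For shared regions these shares were 5.30% (4.73 to 5.91) with A12 E47-ER alone and 7.17% (6.51 to 7.86) with A12 bHLH-ER alone. For bHLH-ER-only regions they were 3.42% (3.09 to 3.77) and 4.70% (4.32 to 5.10). Thus shared and bHLH-ER-only regions were more often in the longer A12 bHLH-ER list alone, and E47-ER-only regions about equally often in either list alone. The difference between the classes was not tested.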

How the data were processed

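Peak lists of 24 chromatin libraries and 6 array samples were used as deposited. Peaks were called with HOMER on mm8, per the submitters' processing notes; parameters and read depths are not given in the sources used here. The score of a region is the deposited score of each list, a whole number whose scale is unstated, and is compared within a list only. Array values are deposited Agilent Feature Extraction 9.5.3.1 processed intensities.

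Regions overlapped when they shared at least 1 bp. Shares have exact 95% binomial intervals, computed with SciPy. The overlap code was tested on simulated regions. Log2 intensities were quantile normalised, the brightest probe of a gene was kept, genes well above background in both samples of a group were kept, and limma 3.58.1 was fitted in R 4.3.3 with group and dye over all 6 samples, at an adjusted p below 0.05. On simulated data for EBF-/- against E2A-/- (12276 genes) recovery was 39 of 67 genes where the size was 1 log2 unit, 53 of 67 for 2 units and 63 of 66 for 4 units, beside 19 unchanged genes called. Of 41174 probes, 8126 had no current symbol, and probes whose design position spans over 50 kb were left out of the assignment of regions to genes.

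Named genes were the 12 with most regions of each single form, up to 4 per list and 11 always described, and the 5 highest-scored regions of each single form. Members and lists were chosen with earlier results of these data known. Some genes that this rule names are not reported here.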

Additional observations from a re-analysis of the deposited data

How the results depend on the processing

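The overlap shares moved with the definition. As a share of the E47-ER list, overlap was 45.6% with at least 50% of the shorter region required, 53.8% with edges within 1000 bp allowed, 44.3% in the higher-scored 50% of each list and 41.1% with both lists at one length. As a share of the bHLH-ER list these were 29.7%, 35.0%, 28.9% and 41.1%. Joining regions closer than 1000 bp changed neither.

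Binding by E47-ER at 6 h kept its order, E47-ER-only above shared above bHLH-ER-only, under the 4 alternatives tried, with 1.91 to 2.20 times the share in E47-ER-only as in bHLH-ER-only regions. In that order of classes it was 22%, 15.8% and 10.6% with sites within 1000 bp of the region counted, 7.71%, 5.18% and 4.04% with the higher-scored 50% of sites, and 19.5%, 14.8% and 9.99% with the higher-scored 50% of each H3K4me1 list; splitting the classes at 1000 bp moved no share beyond its interval.

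Without normalisation between channels, 63 genes near E47-ER-only and 93 near bHLH-ER-only regions were called higher in EBF-/- cells. These were 2.34% and 1.98% of the genes near each class, against 2.44% of all genes. Without the filter on dim probes the numbers were 266 and 434. Without the filter these were 7.76% and 7.05% of the genes near each class, above the 5.56% of all genes. Leaving out 1 array sample at a time, where the lone sample left is assumed to vary like the other groups, gave 39 to 615 and 58 to 1116. With the replicate number as a block in place of the dye term the counts were 362 and 614 (13.4% and 13.0%, against 12.7% of all genes). Deviations of same-numbered samples correlated at 0.163, -0.398 and 0.00994 between the groups. With 2 samples in each group these values cannot decide whether the numbers pair the samples. With the array as a random block, chosen after seeing the data, the counts were 371 and 641 (13.8% and 13.6%, against 12.9% of all genes). There are no replicates of either H3K4me1 library, so no share of regions could be recomputed without one.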
